A study of Mus musculus with 6 samples.

Results

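Mt1 and Mt2, the 2 metallothionein genes that most mouse tissues express, were followed array by array in newborn forearm bone. The members were the probe sets annotated with exactly 1 gene symbol, that symbol being Mt1 or Mt2. The rule found 2 probe sets, 10574027 for Mt1 and 10574023 for Mt2, among 8997 in all, of which 6398 carried 1 symbol and stood for 5780 genes. Both genes were selected on their intensities in mutant against wild-type bone, with the differences already known, so these differences are given as a description and were not tested. Total RNA of radii and ulnae was hybridised to 6 one-colour Affymetrix whole-transcript arrays. Of these, 3 held bone of Tnni2 del175k mutant mice and 3 held bone of their wild-type littermates, all newborn and of strain 129sv. Tnni2 is the gene of troponin I of fast muscle fibres, and the labels do not say whether the mutants carried 1 or 2 mutant alleles, or whether an array held 1 mouse. The p-values below therefore measure the spread between these arrays alone, part of which may be technical.

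Metallothioneins are small cysteine-rich proteins that hold zinc and copper in metal-thiolate clusters and bind cadmium when it is present. Zinc raises their transcription through the metal-sensing factor MTF-1, which binds metal response elements in their promoters. Glucocorticoids, inflammatory cytokines, oxidative stress and fasting are also known to induce Mt1 and Mt2. Both genes lie on mouse chromosome 8 in 1 cluster with Mt3, best known from brain, and Mt4, best known from stratified epithelium.

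The promoter windows are shown because the pair of genes shared a pattern over the arrays and metal response elements are the best known control sites of this family. Each window runs 5′ to 3′ on the plus strand, from 250 bases before to 50 bases after the start that the RefSeq table uses. The sequences are those of RefSeq on build GRCm38.p6, a C57BL/6J assembly, whereas the mice were 129sv. Windows were found for all 4 genes of the cluster. That of Mt4, with 1 core match at -91, is not printed, since Mt4 was not among the named probe sets. Capitals mark the core of the metal response element, searched as TGCACNC and TGCGCNC on both strands, so that a match on the minus strand reads GNGTGCA or GNGCGCA.
Mt1, chr8:94178839-94179138: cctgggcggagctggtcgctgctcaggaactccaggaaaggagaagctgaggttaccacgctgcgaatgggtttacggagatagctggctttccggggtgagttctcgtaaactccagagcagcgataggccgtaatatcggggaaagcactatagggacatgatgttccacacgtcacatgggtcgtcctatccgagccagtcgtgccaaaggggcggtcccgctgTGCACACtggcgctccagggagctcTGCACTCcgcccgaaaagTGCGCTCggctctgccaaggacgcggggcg
Mt2, chr8:94172368-94172667: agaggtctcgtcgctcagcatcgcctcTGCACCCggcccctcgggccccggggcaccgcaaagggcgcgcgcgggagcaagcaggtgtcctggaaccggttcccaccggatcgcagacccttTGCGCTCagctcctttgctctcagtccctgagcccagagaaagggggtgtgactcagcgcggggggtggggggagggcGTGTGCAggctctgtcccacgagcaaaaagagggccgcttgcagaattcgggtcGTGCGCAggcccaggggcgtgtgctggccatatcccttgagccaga
Mt3, chr8:94152357-94152656: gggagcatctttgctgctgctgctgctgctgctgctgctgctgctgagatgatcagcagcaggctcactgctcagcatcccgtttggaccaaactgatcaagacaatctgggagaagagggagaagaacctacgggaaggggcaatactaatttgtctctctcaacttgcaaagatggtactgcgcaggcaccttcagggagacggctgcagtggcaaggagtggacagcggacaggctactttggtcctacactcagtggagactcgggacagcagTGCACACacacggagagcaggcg
The Mt1 window held 3 core matches, the Mt2 window 4 and the Mt3 window 1. At least 1 core match was present in 25.7% of the 32851 promoter windows of this length, at least 3 in 1.97% and at least 4 in 0.517%. In Mt1 the matches began at -23, 3 and 21 counted from the start of the RefSeq table as position 1, all on the plus strand. In Mt2 they began at -223, -128, -50 and 5, the first and second on the plus strand and the other two on the minus strand. The Mt2 window also held TGACNNNGC, the core of the antioxidant response element, once at -79, and 12.4% of all windows held it. Whether the RefSeq start of each gene is the one used in newborn bone is unknown, so all positions hold for that start only. These letters describe the windows only, and sequence outside them was not searched. A site absent from a window may therefore lie outside it.

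Mt1 was brighter on every mutant array than on any wild-type array. Its intensity, the summarised brightness of the probe set on a linear scale, was 371.7, 349.1 and 130.5 on mutant arrays 1 to 3, against 96.3, 98.7 and 102.5 on wild-type arrays 1 to 3. The first and second mutant arrays stood 3.63 and 3.41 times above the brightest wild-type array, and the third 1.27 times above it. Its group means were 283.8 ± 133.2 in mutants and 99.1 ± 3.11 in wild-type (SD, n = 3 each). The log2 difference, mutant minus wild-type, was 1.37 ± 0.49 (SE from the spread of both groups), or 2.59-fold. All mutant values above all wild-type values were seen in 9.18% of the 8997 probe sets, and Mt1 was chosen with its difference known, so nothing is read from this order.

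Mt2 stood far above its wild-type levels on mutant arrays 1 and 2, but not on mutant array 3. Its intensity was 488.6, 640.9 and 115.0 on mutant arrays 1 to 3, against 159.6, 155.1 and 98.0 on wild-type arrays 1 to 3. The groups overlapped, since mutant array 3 was at 0.72 times the brightest wild-type array and above wild-type array 3 only. The mean was 414.8 ± 270.6 in mutants and 137.6 ± 34.3 in wild-type (SD, n = 3 each), a log2 difference of 1.30 ± 0.80, or 2.46-fold. The differences of Mt1 and Mt2 ranked 34 and 38 from the top among the 8997 probe sets.

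**Figure D1:**
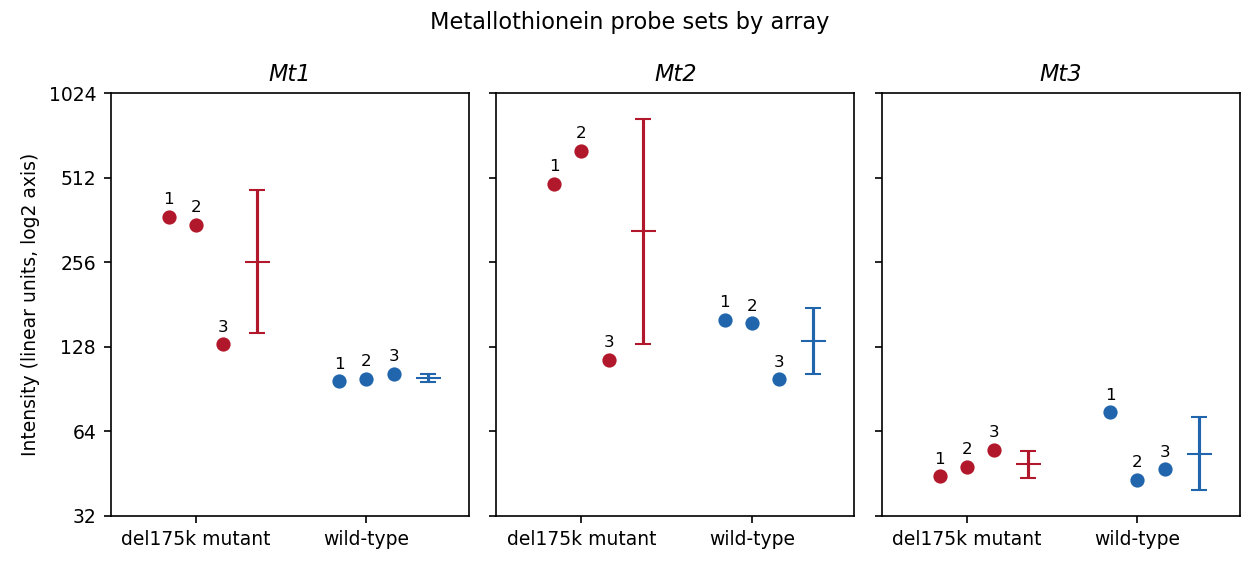
Intensity of Mt1, Mt2 and Mt3 on each array (log2 axis), with numbers giving the replicate and the bars the mean ± SD of log2 values (n = 3 per group). Mutant arrays 1 and 2 sit at 349.1 to 640.9 for Mt1 and Mt2, mutant array 3 at 115.0 to 130.5, and all Mt3 values between 43.0 and 74.9.

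In both genes the mutant arrays differed more from each other than the wild-type arrays did. Mutant array 1 was 2.85 times mutant array 3 for Mt1 and 4.25 times for Mt2. Mutant array 2 was 2.67 times mutant array 3 for Mt1 and 5.57 times for Mt2. The SD of log2 intensity over the mutant arrays was 0.85 for Mt1 and 1.33 for Mt2, a spread that 1.47% and 0.378% of all probe sets reached or passed. Over the wild-type arrays the SD was 0.045 for Mt1 and 0.39 for Mt2, and 1.85% of probe sets had a wild-type SD as small as that of Mt1. This close agreement of Mt1 depended on the scale: after each array was centred on its median, its wild-type values were 111.9, 93.8 and 98.4 and their SD 0.13. On that scale Mt1 was at 125.8 on mutant array 3, nearer to the brightest wild-type array than in the deposited values. The brightest Mt2 value among wild-type arrays was 1.63 times the dimmest, and among Mt1 values 1.06 times.

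Wild-type array 1 was dimmer than the rest, by a median log2 difference of -0.30 against the mean of the other 5. Array medians were 45.5 to 47.8 in mutants and 39.6 to 48.4 in wild-type. Over all probe sets, log2 intensities of mutant array 3 correlated at 0.951 and 0.956 with mutant arrays 1 and 2. With wild-type arrays 1 to 3 they correlated at 0.916, 0.968 and 0.974. The nearness of mutant array 3 to wild-type arrays 2 and 3 was thus not particular to Mt1 and Mt2, and its cause was not tested. All 8997 probe sets were at 20 or above on at least 3 arrays, a filter by level that does not bear on Mt1 or Mt2, which stood above 20 on all 6. Type I collagen was bright, with Col1a1 at 7321 to 7785 in mutants and 6552 to 7807 in wild-type, but it alone does not single out bone. Of the other osteoblast markers, Ibsp was at 373.1 to 784.4 in mutants and 258.8 to 574.4 in wild-type. Sp7 was dim, at 21.3 to 61.1 in mutants and 26.4 to 65.4 in wild-type. Muscle RNA was present as well, with Acta1 at 2309 to 2889 in mutants and 1955 to 3614 in wild-type. All 7 listed chondrocyte markers were measured too. Osteoclast markers, 4 of 6 measured, had a summed intensity of 1690, 1177 and 1550 on mutant arrays. It was 594.2, 856.7 and 1028 on wild-type arrays, lowest on the dim array 1, and 0 markers were at 0. The sums stood apart by group, as did Ctsk, Mmp9 and Acp5, against 9.18% of all probe sets with all mutant arrays above. Ocstamp overlapped, at 21.3 on mutant array 1 and 23.0 on wild-type array 2. Of the 4 osteoclast markers 0 were called, with log2 differences of 1.16 for Ctsk, 0.78 for Mmp9, 0.72 for Acp5 and 0.22 for Ocstamp. Their part in the levels of Mt1 and Mt2 was not tested. Hepatocyte markers, which would mark the tissue best known for metallothionein, had 0 of 5 among the probe sets with 1 symbol. In bulk tissue, more cells that express a gene and more RNA of it per cell cannot be told apart.

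Leaving out mutant array 3 widened both differences, and leaving out either other mutant array narrowed them. The log2 difference was 1.86 for Mt1 and 2.06 for Mt2 without mutant array 3. It was 1.11 and 1.01 without mutant array 1, and 1.15 and 0.82 without mutant array 2. Without any one wild-type array it lay between 1.35 and 1.40 for Mt1 and between 1.07 and 1.42 for Mt2.

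**Figure D2:**
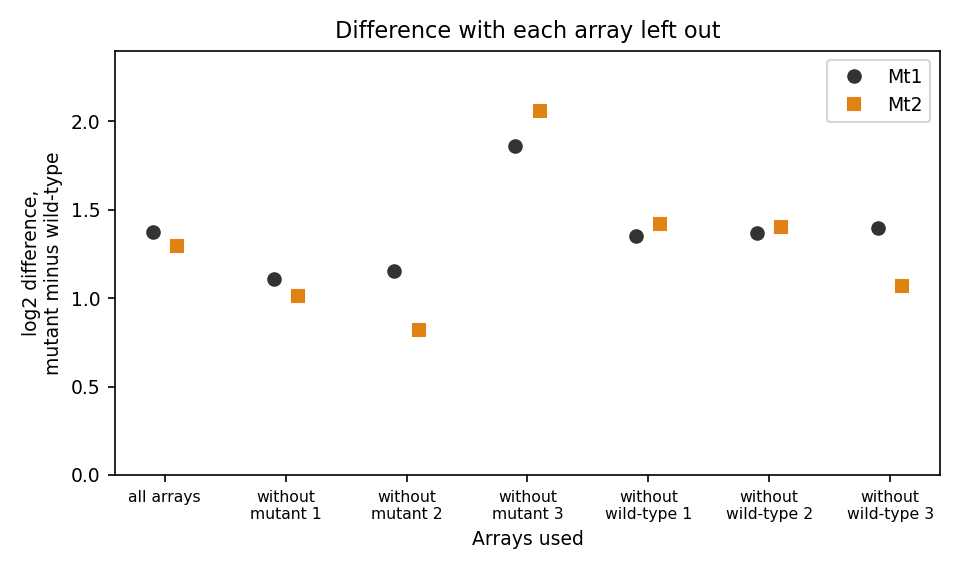
Log2 difference of Mt1 (circles) and Mt2 (squares), mutant minus wild-type, with all 6 arrays and with each array left out. The Mt1 values run from 1.11 to 1.86 and the Mt2 values from 0.82 to 2.06, and both are highest without mutant array 3.

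Mt2 did not follow Mt1 on every array. Since probe sets differ in brightness for the same amount of RNA, the level of Mt2 over Mt1 has no meaning on 1 array, but its change between arrays does. Mt2 minus Mt1 in log2 intensity was 0.39, 0.88 and -0.18 on mutant arrays 1 to 3, against 0.73, 0.65 and -0.064 on wild-type arrays 1 to 3. Its mean was 0.36 ± 0.53 in mutants and 0.44 ± 0.44 in wild-type (SD, n = 3 each), so the mean difference of -0.076 was smaller than the spread of either group. The pair is similar in sequence, and whether the probes of one bind RNA of the other was not tested.

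The 3 arrays with the highest Mt2 relative to Mt1 were also the 3 with the highest skin markers. The 6 measured epidermal markers of 8 listed (Krt1, Krt5, Krt10, Krt14, Lor and Krtdap) encode keratins and cornified envelope proteins. Their mean log2 level, each gene relative to its own mean over the arrays and to all probe sets, was -1.55, 0.78 and -2.07 on mutant arrays 1 to 3, against 2.89, 2.12 and -2.14 on wild-type arrays 1 to 3. Their summed intensity ranged from 51.3 to 460.4 in mutants and from 47.3 to 1798 in wild-type, and 0 markers were at 0. Replicates numbered 3 of both groups were lowest on both measures. Mutant array 2 had the highest Mt2 relative to Mt1 but only the third highest epidermal level. Of the 6 markers, 5 reached 20 only on mutant array 2 and wild-type arrays 1 and 2, so under the filter by level they could be present only through those 3 arrays. Krt1 also reached 20 on mutant array 1, at 20.9. Other marker lists lined up the opposite way. On the same scale, skeletal muscle markers were highest on mutant array 3 and wild-type array 3 (0.29 and 0.48). Osteoblast markers (0.33 and 0.15) and adipocyte markers (0.24 and 0.21) were highest on the same arrays. The part of skin, or of these other tissues, in the level of Mt2 was not tested.

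**Figure D3:**
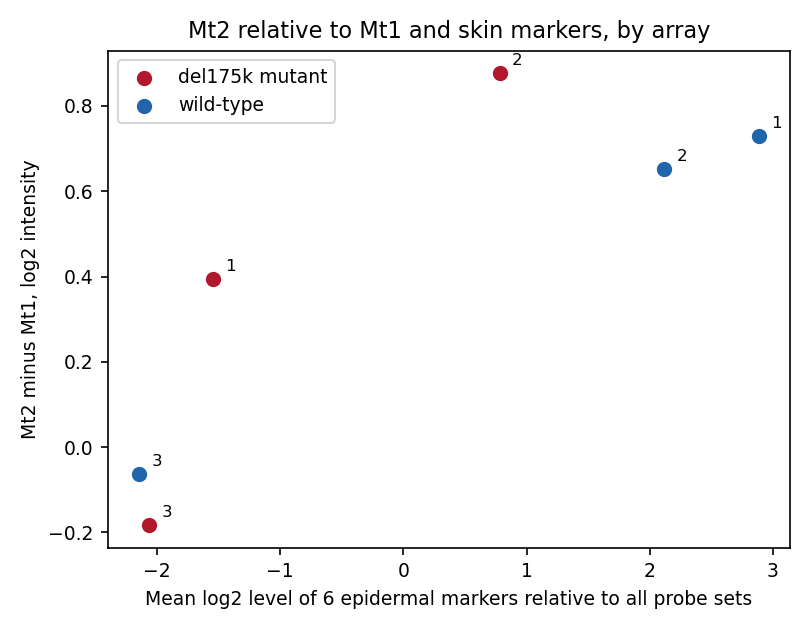
Mt2 minus Mt1 in log2 intensity (vertical) against the mean log2 level of 6 epidermal markers (horizontal, each gene relative to its mean over the arrays and to all probe sets), 1 point per array, numbered by replicate. Replicate 3 of both groups sits at the lower left, and wild-type 1, wild-type 2 and mutant 2 sit at 0.65 or above on the vertical axis.

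Mt3, the third measured gene of the cluster, did not pass the test and had nearly equal levels in both groups. It was at 44.3, 47.8 and 55.0 on mutant arrays, against 74.9, 43.0 and 46.8 on wild-type arrays, with wild-type array 1 the highest and the other 5 arrays close together. Mutant minus wild-type, it was at -0.12 ± 0.25 in log2 (limma SE, adjusted p = 0.916), but at 0.12 without wild-type array 1 and 0.042 with array weights. Mt4 was not among the named probe sets. Of the 5 genes on each side of the cluster in the RefSeq gene table, 2 were measured. Nudt21, which encodes a subunit of the cleavage factor of mRNA 3′ end formation, was at 43.9, 40.9 and 45.5 on mutant arrays, against 34.7, 39.1 and 41.5 on wild-type arrays (0.18 ± 0.19, limma adjusted p = 0.811). Its dimmer probe set was at 0.21. Nup93, for a nuclear pore protein, was at 20.9, 18.7 and 22.0 on mutant arrays, against 17.9, 18.9 and 28.4 on wild-type arrays (-0.055 ± 0.23, limma adjusted p = 0.965). Its direction turned without mutant array 2 and without wild-type array 3. None of these 3 genes shared the high values of mutant arrays 1 and 2.

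Genes that sense, move and store metals were then read from the same limma fit over all probe sets, with 0 called at an adjusted p under 0.05 (0.0% of 8997, in either direction). At an unadjusted p under 0.05 there were 516 higher (5.74%) and 153 lower (1.7%), together 7.44%. Over all probe sets the log2 difference had a median of 0.045, and 56.7% had a higher mean in mutants. Mtf1, which encodes MTF-1 itself, was not among the named probe sets. Of the sensing list, Sp1, a general promoter-binding factor, was at 0.13 ± 0.24, and Keap1, the inhibitor of the oxidative stress factor NRF2, at 0.045 ± 0.20 (limma adjusted p = 0.905 and 0.966). The direction of Sp1 turned without wild-type array 1 and with array weights, and that of Keap1 also after median centring or quantile normalization and without mutant array 1.

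Zinc transporters lay close to the level of all genes. Of 24 listed, 8 were measured, with a median log2 difference of 0.086, a range of -0.21 to 0.26, and 0 past even an unadjusted p of 0.05. Slc39a1, which encodes the plasma membrane zinc importer ZIP1, was the brightest, at 193.7, 211.7 and 165.6 on mutant arrays, against 126.6, 174.2 and 183.3 on wild-type arrays (0.25 ± 0.22, limma adjusted p = 0.777). The groups overlapped. Slc39a7, for an importer that releases zinc from the endoplasmic reticulum, was at -0.21 ± 0.20, and Slc39a13, an importer gene whose human counterpart is mutated in a connective tissue dysplasia, at -0.11 ± 0.20. Of the exporters, Slc30a4 was at 0.26 ± 0.25, Slc30a5 at 0.11 ± 0.26 and Slc30a7 at -0.061 ± 0.26. Slc30a1, the exporter gene best known to be induced by zinc through MTF-1, was not among the named probe sets. Directions among these turned without wild-type array 1 for Slc30a4 and Slc30a5, and without wild-type array 3 for Slc30a7 and Slc39a13. Slc30a5 also turned without mutant array 3 and with array weights, Slc30a7 without mutant array 2, and Slc30a4 with values under 20 set to 20.

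Copper genes were few. Of 15 listed, 4 were measured, 2 with higher and 2 with lower means in mutants. Lox, which encodes the copper-dependent enzyme that crosslinks collagen and elastin, was at 262.1, 264.1 and 171.8 on mutant arrays, against 84.3, 179.4 and 132.3 on wild-type arrays. Mutant array 3 again was the lowest of its group and lay below wild-type array 2. Its log2 difference of 0.86 ± 0.30 missed the threshold (limma adjusted p = 0.638). Sod1, for the copper and zinc superoxide dismutase, was at 0.11 ± 0.20, and Atox1, for a copper chaperone, at -0.19 ± 0.22.

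Iron genes had higher means in mutants in 11 of 13 measured, against 56.7% of all probe sets, with 0 called and a median log2 difference of 0.28. Slc40a1, which encodes the iron exporter ferroportin, was at 81.0, 50.8 and 54.2 on mutant arrays, against 24.5, 41.5 and 37.5 on wild-type arrays (0.85 ± 0.27, limma adjusted p = 0.595). Fth1, for the ferritin heavy chain that stores iron, was at 1021, 900.7 and 786.9 on mutant arrays, against 559.9, 737.2 and 764.1 on wild-type arrays (0.40 ± 0.21, limma adjusted p = 0.708). In both genes the lowest mutant array was above the highest wild-type array, as in 5 of the 13, against 9.18% of all probe sets. Steap3, for a reductase of endosomal iron, lay the other way, at 39.9, 42.4 and 41.7 on mutant arrays, against 49.7, 43.8 and 48.0 on wild-type arrays (-0.19 ± 0.18, limma adjusted p = 0.796). It was the 1 iron gene whose highest mutant array was below its lowest wild-type array, against 3.89% of all probe sets. Tfrc, for the transferrin receptor, was at 0.61 ± 0.24, and Pcbp2, for an RNA-binding protein that also delivers iron, at 0.23 ± 0.22. Without wild-type array 1, the dim one, the median of the list was 0.058, against -0.033 for all probe sets, and 9 of 13 had higher means.

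**Figure D4:**
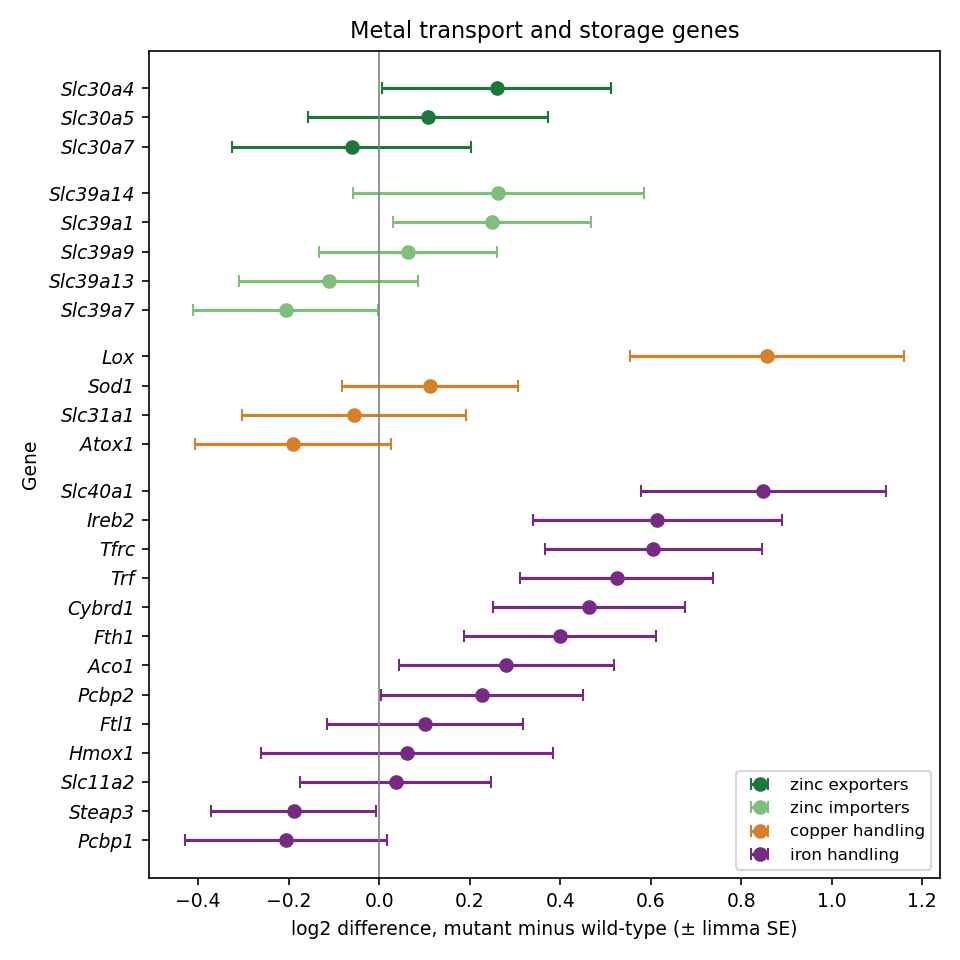
Log2 difference, mutant minus wild-type, with the limma SE for the 25 measured zinc, copper and iron genes, by list. Zinc transporters lie between -0.21 and 0.26, while Lox (0.86) and Slc40a1 (0.85) lie farthest to the right.

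In most genes of the glucocorticoid list, as in Mt1 and Mt2, mutant arrays 1 and 2 stood above mutant array 3. It was chosen with results of these data known, so its direction is not independent evidence. All 10 measured genes of 15 listed had higher means in mutants, against 56.7% of all probe sets, with a median log2 difference of 1.18, 0 called, and 6 past an unadjusted p of 0.05 against 5.74% of all probe sets. Mutant array 3 was the lowest mutant array in 9 of the 10, against 30.1% of all probe sets. This was not particular to the glucocorticoid list, since the fasting and inflammatory lists below had it in most genes too. Tsc22d3, which encodes the glucocorticoid-induced leucine zipper protein, was at 166.2, 155.4 and 49.6 on mutant arrays, against 18.6, 35.1 and 24.5 on wild-type arrays. Mutant arrays 1 and 2 were far above the rest and mutant array 3 was above all wild-type arrays, as for Mt1 (2.11 ± 0.44, limma adjusted p = 0.42). All mutant arrays lay above all wild-type arrays in 2 of the 10 genes, Tsc22d3 and Glul, against 9.18% of all probe sets. In Fkbp5 and Zbtb16, which had the largest differences of the list, mutant array 3 lay within the wild-type range.

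Glul, for glutamine synthetase, was at 425.8, 372.0 and 118.0 on mutant arrays, against 67.9, 106.0 and 84.3 on wild-type arrays (1.65 ± 0.44, limma adjusted p = 0.559), and its dimmer probe set was at 1.79. Dusp1, for a phosphatase that switches off MAP kinases, did not share this pattern, at 236.9, 248.2 and 291.5 on mutant arrays, against 136.8, 370.2 and 182.1 on wild-type arrays (0.30 ± 0.33). Its direction turned without wild-type array 1. The list as a whole kept a median of 0.94 without that array, with 9 of 10 higher. Some of the genes differed from Mt1 on wild-type array 2. There Errfi1 stood 1.36, Zbtb16 1.04, Per1 1.01 and Dusp1 0.82 log2 units above their wild-type means, where Mt1 stood at -0.0065.

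**Figure D5:**
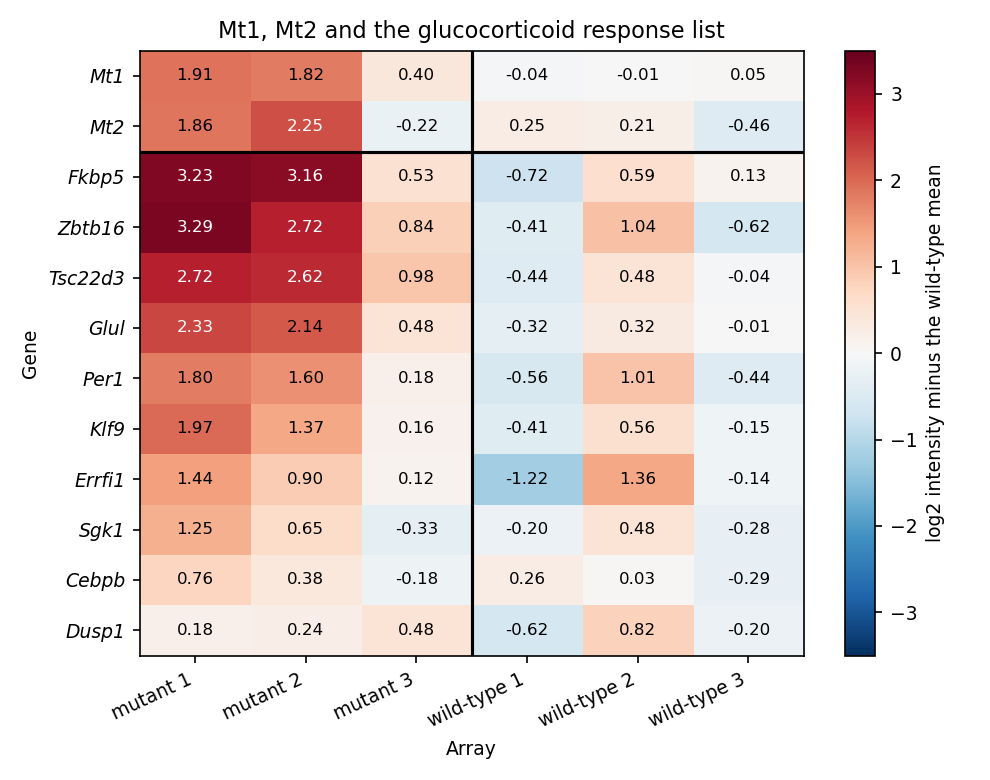
Log2 intensity minus the wild-type mean of each gene, for Mt1, Mt2 (above the line) and the 10 measured genes of the glucocorticoid response list, by array. Mutant arrays 1 and 2 are high for Mt1 (1.91 and 1.82), Mt2 (1.86 and 2.25) and most of the list, while mutant array 3 is near the wild-type arrays.

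Of the lists for other known inducers, 0 genes were called. These lists too were chosen with results of these data known, so their directions are not independent evidence. Of the fasting and FoxO list all 6 measured genes had higher means, against 56.7% of all probe sets, with a median of 0.97. Past an unadjusted p of 0.05 in limma were 3, against 5.74% of all probe sets. Mutant array 3 was the lowest mutant array in 5 of the 6, against 30.1% of all probe sets. Pik3ip1, whose product restrains PI3K, was at 1.47 ± 0.29 and Foxo3, for a FoxO factor, at 1.07 ± 0.34 (limma adjusted p = 0.42 and 0.591). Foxo1, its paralog, was at 0.87 ± 0.27 and Foxo4 at 0.35 ± 0.24. Pik3ip1 was under 20 on all wild-type arrays, so under the filter by level it could be present only with every mutant array at 20 or above.

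Of 9 measured inflammatory and acute phase genes 7 had higher means, against 56.7% of all probe sets, with a median of 0.56. Higher at an unadjusted p under 0.05 in limma were 3, against 5.74% of all probe sets. Without wild-type array 1, 5 of 9 had higher means and 1 was higher at that p, against 3.20% of all probe sets. The median of the list was then 0.42, against -0.033 for all probe sets. Mutant array 3 was the lowest mutant array in 7 of the 9, against 30.1% of all probe sets. Serpina3n, for a secreted protease inhibitor of the acute phase, was at 224.6, 261.8 and 39.9 on mutant arrays, against 31.0, 48.7 and 70.5 on wild-type arrays (1.49 ± 0.63, limma adjusted p = 0.667). As for Mt2, mutant array 3 lay within the wild-type range. Hp, for haptoglobin, was at 0.75 ± 0.23, Il6st, for the shared receptor chain gp130 of the interleukin 6 family, at 0.74 ± 0.32, and Stat3, for the factor downstream of it, at 0.20 ± 0.29. All wild-type values of Hp were under 20 too, and the direction of Stat3 turned without wild-type array 1.

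The glutathione and NRF2 list was divided, with 6 of 10 higher, near the 56.7% of all probe sets, and a median of 0.088. Gpx3, for the extracellular glutathione peroxidase, was at 0.66 ± 0.19, Gstm1, for a glutathione transferase, at 0.60 ± 0.24, Txn1, for thioredoxin, at -0.081 ± 0.20 and Selenow, for a selenoprotein, at -0.057 ± 0.26. The last 2 turned in direction without wild-type array 3. Selenow also turned without wild-type array 2, mutant array 1 or mutant array 2. Of 5 heat shock genes 2 had higher means, against the same 56.7%, with a median of -0.14. Hspb1, for a small heat shock protein, was at 253.0, 262.4 and 127.2 on mutant arrays, against 76.5, 126.8 and 122.4 on wild-type arrays, so mutant array 3 just passed the brightest wild-type array (0.94 ± 0.32, limma adjusted p = 0.638). Hsp90aa1, for an HSP90 chaperone, was at -0.45 ± 0.31 and Hspa8, for the constitutive HSP70 chaperone, at 0.079 ± 0.25, which turned without wild-type array 1, without mutant array 2 and with array weights. The other probe sets of Hspa8 lay at 0.033 and -0.16.

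The genes most like the pair were found by Pearson's r over the 6 arrays between log2 intensity and the mean log2 intensity of Mt1 and Mt2. An r of at least 0.9 was reached by 96 of the 8997 probe sets, Mt1 and Mt2 among them. The 10 highest by the naming rule were Zer1, Khnyn, Neu1, Pla2g7, Tmem63a, Glul, Ppm1d, Prg4, Qsox1 and Inpp5k, with r between 0.956 and 0.977. These values describe 6 points that share 2 high arrays, and carry no test. Pla2g7, for a secreted phospholipase that degrades platelet-activating factor, was at 54.8, 52.4 and 22.5 on mutant arrays, against 21.9, 18.6 and 23.6 on wild-type arrays. Prg4, for the joint lubricant lubricin, was at 136.6, 146.6 and 49.9 on mutant arrays, against 42.8, 64.2 and 53.9 on wild-type arrays. Mutant arrays 1 and 2 stood above all others in both genes, and mutant array 3 within the wild-type range, as in 7 of the 10. In Khnyn and Glul mutant array 3 lay above all wild-type arrays, and in Tmem63a below them. All mutant arrays lay above all wild-type arrays in 9.18% of all probe sets. Genes picked by likeness to Mt1 and Mt2 share their shape over the arrays by selection, so nothing is read from these counts. The likeness came with unequal size, since the log2 difference ran from 0.15 for Tmem63a to 1.65 for Glul. Mutant arrays 1 and 2 exceeded the other 4 arrays in 1042 probe sets, 11.6% of all.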

How the data were processed

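RNA of newborn mouse radii and ulnae was measured on 6 arrays, 3 mutant and 3 wild-type. The deposited values were linear intensities, 1 per probe set and array. How the authors corrected background, summarised probes and scaled arrays is not stated in the labels, so the scaling is unknown. Gene names came from the platform annotation of 2016, with 576 probe sets carrying several symbols and 2023 none. Intensities were taken to log2 with no further normalization. All 8997 probe sets were fitted with 1 mean per group in limma 3.58.1 in R 4.3.3 (lmFit, eBayes, two-sided), with Benjamini-Hochberg adjustment over all of them and a threshold of 0.05. The brightest probe set stood for a gene. The members and lists were chosen with earlier results of these data known. Named were, per list, genes that passed, otherwise the 2 of smallest p and the 2 brightest, all members of the family, sensing and neighbour lists, and the 10 genes most like the pair, skipping predicted genes, olfactory receptors and small RNAs. A few others, such as Zbtb16, Per1, Errfi1, Steap3, Col1a1 and the osteoclast genes, were named after their values were seen. Promoter motifs were searched with Python 3.11.15. On 20 simulated data sets of 8997 probe sets each, limma recovered 38.7% of 2-fold and 86.2% of 4-fold changes, with 4.48% of calls false. The simulated noise was normal, independent between probe sets and equal in spread in both groups, and the changes fell on randomly chosen probe sets. These rates therefore do not hold for genes with a spread among mutant arrays as wide as that of Mt2. The number of arrays limits the precision.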

Additional observations from a re-analysis of the deposited data

How the results depend on the processing

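The log2 differences of Mt1 and Mt2 stayed positive and moved by less than 1 SD between replicates under all 11 alternatives run for each. The log2 differences ranged over 1.11 to 1.86 for Mt1 and 0.82 to 2.06 for Mt2 with each array left out. For Mt1 and Mt2 they were 1.53 and 1.84 with array weights, 1.32 and 1.24 after median centring and 1.30 and 1.26 after quantile normalization. Over all probe sets, limma called 0 in the main setting (669 at an unadjusted p under 0.05; the ordinary statistic, added after seeing the data, also called 0). It called 4 with array weights and 0 to 15 with each array left out, the 15 without mutant replicate 3. Called pathway genes numbered 0 to 5 with each array left out, again without mutant replicate 3, and 0 under the other alternatives. These 5 were Fkbp5, Glul, Tsc22d3, Serpina3n and Pik3ip1, all higher. The cause was not tested. Per-list values under other scalings, and Mt2 minus Mt1 (-0.33 to 0.20 with each array left out, 0.31 with array weights), were chosen after seeing the data. Among probe sets past an unadjusted p of 0.05, the higher ones made up 77.1% in the main setting, 66.0% after median centring, 62.3% after quantile normalization and 43.6% with array weights. With the replicate number as a block the differences were the same by construction (1.37 for Mt1 and 1.30 for Mt2), and limma called 0. The labels do not say that a replicate number marks a litter, so the numbers were not taken as pairs. Deviations of same-numbered arrays correlated at -0.11, -0.026 and 0.32, and those of unlike-numbered arrays at -0.42 to 0.34. With so few arrays these values do not settle whether the numbers mark pairs.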
